A study of Mus musculus with 8 samples.

Results

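AMPA receptors are the glutamate-gated cation channels that carry most fast excitatory transmission in the brain, and the 10 genes described here encode their pore subunits and a set of auxiliary proteins. The genes were chosen by symbol: Gria1, Gria2, Gria3 and Gria4 for the pore, Cacng2, Cacng3 and Cacng8 for transmembrane AMPA receptor regulatory proteins (TARPs), Cnih2 and Cnih3 for cornichons, and Shisa6. The count table held all 10 among 46078 gene entries, and all 10 were among the 15859 genes with enough counts to be tested. Hippocampal RNA came from 4 libraries of mice carrying the transgene Tg(Camk2a-cre)2Gsc, also called CamiCre, as Cre+/- (Cre), and 4 libraries of wild-type mice (WT), all C57BL/6J and 9 weeks old. In this transgene regulatory DNA of Camk2a drives Cre recombinase, mainly in excitatory forebrain neurons, and the labels name no floxed allele in either group. The labels number the libraries within each genotype and do not say whether each came from a different animal, so p-values measure the spread between these libraries, which may be technical.

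Each AMPA receptor is a tetramer of GluA subunits, and which subunits are present sets its conductance, calcium permeability and trafficking. TARPs, cornichons and Shisa proteins bind the tetramer and alter its trafficking, closing or desensitization in ways that differ between members. In hippocampal pyramidal neurons most receptors contain GluA1 and GluA2 or GluA2 and GluA3, and the TARP encoded by Cacng8 is enriched in this region. The comparison of Cre with WT asks which of these transcripts differ in carriers of the transgene.

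The subunits share much of their coding sequence, and the stretch that codes for the pore loop shows how close they are. The coding sequences below surround the codon of the Q/R site, where ADAR enzymes edit the Gria2 transcript so that a glutamine codon is read as arginine and the channel passes little calcium. The capitals mark that codon, and the letters are those of the reference transcripts, 5′ to 3′.
Gria1: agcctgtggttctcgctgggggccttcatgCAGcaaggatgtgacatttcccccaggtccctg
Gria2: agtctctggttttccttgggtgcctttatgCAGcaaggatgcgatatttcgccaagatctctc
Gria3: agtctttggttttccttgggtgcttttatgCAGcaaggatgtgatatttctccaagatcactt
Gria4: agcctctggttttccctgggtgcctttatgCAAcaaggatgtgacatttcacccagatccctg
The codon lies at chr11:57243094-57243096 in Gria1 (plus strand), chr3:80706911-80706913 in Gria2 (minus strand), chrX:41610265-41610267 in Gria3 (plus strand) and chr9:4464137-4464139 in Gria4 (minus strand), all on GRCm38. Counted from the start codon it is codon 600 in Gria1, 607 in Gria2, 612 in Gria3 and 608 in Gria4. Each stretch crosses an exon junction, from exon 11 to 12 of the transcript used for Gria1, Gria2 and Gria3 and from exon 12 to 13 for Gria4. The reference carries a glutamine codon in all 4 genes, and gene counts do not separate edited from unedited transcripts, nor the flip and flop splice forms.

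The last coding bases of the 3 TARP genes are shown because they code for the tail that binds PDZ domains of PSD-95, with the 4 codons before the stop in capitals.
Cacng2: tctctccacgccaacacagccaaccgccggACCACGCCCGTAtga
Cacng3: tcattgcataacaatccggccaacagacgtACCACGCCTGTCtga
Cacng8: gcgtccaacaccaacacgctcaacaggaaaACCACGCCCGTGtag
These lie at chr15:77995149-77995193 (minus strand), chr7:122768802-122768846 (plus strand) and chr7:3415561-3415605 (plus strand), in the last exon of each transcript. Aligned coding bases were 69.9% to 72.8% identical between pairs of pore subunits, 67.0% to 72.8% between pairs of these TARPs and 77.2% between Cnih2 and Cnih3. The longest run that any of these pairs shared without a mismatch was 37 bases, between Gria3 and Gria4, against sequencing reads of 150 bases.

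None of the 10 genes passed the test for a difference between Cre and WT (edgeR's quasi-likelihood test, Benjamini-Hochberg adjusted p = 0.999 for each). Over all 15859 genes the same test called 5 (0.0315%). At an unadjusted p under 0.05 there were 0 of the 10, by edgeR, limma voom or DESeq2, where edgeR had 3.5% of all genes below that p, and 1.45% of all genes were both below it and lower in Cre. The Cre and WT libraries overlapped in each of the 10, and they did not overlap in 2.31% of all genes. Fold changes lay below 0 in 6 of the 10 and above 0 in 4, where 49.8% of all genes lay below 0. They ran from -0.09 for Shisa6 to 0.07 for Cacng3 on the log2 scale, with a median of -0.015 against 0.00036 over all tested genes. The median size of the log2 fold change, sign set aside, was 0.042 for the 10, 0.052 over all tested genes and 0.031 over the 4595 genes with a mean of at least 50 CPM (counts per 1000000 normalised library counts). Exact permutation tests of single genes over the 8 libraries gave p from 0.2 to 1, two-sided.

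**Figure D1:**
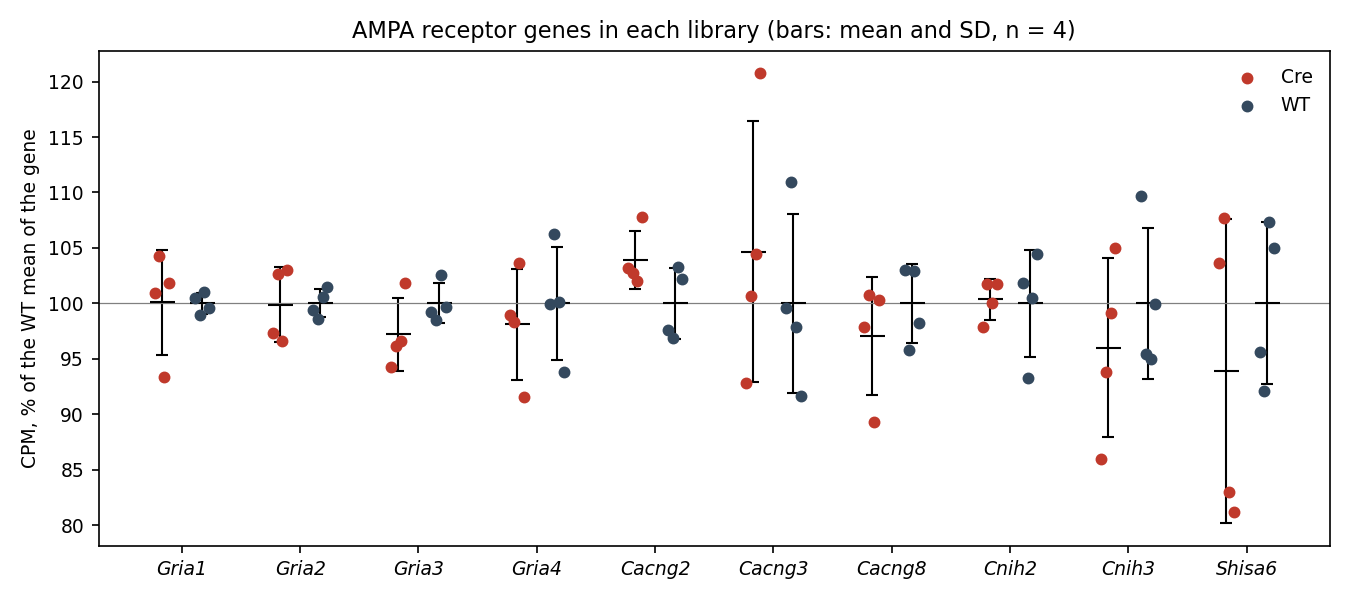
Each point is 1 library; the vertical axis is the gene's CPM as a percentage of its mean in WT, with Cre on the left of each pair and black bars for the mean and SD (n = 4). Points of both genotypes overlap for every gene, and the Cre libraries spread widest for Shisa6, from 156 to 207 CPM.

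Library totals were 21339996 to 27826871 counts in Cre and 24289522 to 26950207 in WT. The tissue label was checked against markers: summed over 6 genes, CA1 pyramidal markers stood at 682 to 868 CPM in Cre and 761 to 853 CPM in WT, and 7 dentate granule markers at 367 to 508 CPM in Cre and 393 to 462 CPM in WT. Fold changes lay below 0 in 4 of the 6 CA1 and 4 of the 7 dentate markers, against 49.8% of all genes. Of these markers 0 had an unadjusted p under 0.05 by edgeR. Markers of CA3 and CA2 are given below with Shisa6. Markers of 3 glial types had fold changes above 0, although 0 passed over all genes: this held for 8 of 8 microglia markers (391 to 520 CPM summed in Cre, 357 to 384 in WT), 8 of 8 astrocyte markers (5368 to 6014 in Cre, 4977 to 5355 in WT) and 7 of 7 oligodendrocyte markers (3933 to 5042 in Cre, 3915 to 4352 in WT). Cre replicate 1 was the highest of the 8 libraries in all 3 of these sums. Cre replicates 2 to 4 had 398, 400 and 391 CPM for microglia and 5451, 5677 and 5368 CPM for astrocytes. For oligodendrocytes they had 4710, 4418 and 3933 CPM. At an unadjusted p under 0.05 by edgeR there were 6 of the microglia, 4 of the astrocyte and 2 of the oligodendrocyte markers, all higher in Cre. The groups did not overlap in 3 microglia and 2 astrocyte markers. Over all genes, 49.8% had fold changes below 0, 3.5% were below that p in either direction, and 2.31% had groups that did not overlap. Of 6 markers of oligodendrocyte precursors, 4 had fold changes above 0 and 2 below (sums of 283 to 330.1 CPM in Cre and 295 to 299 CPM in WT). All 5 tested choroid plexus markers had fold changes below 0, with sums of 122 to 158 CPM in Cre, 1567 CPM in WT replicate 1 and 122 to 146 CPM in the remaining WT libraries. The part of cell composition in the values below was not tested, and in bulk tissue fewer cells of a type and less RNA per cell cannot be told apart.

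Among the pore subunits, Gria1 had the highest counts. Gria1 encodes GluA1, the subunit whose phosphorylation and insertion accompany long-term potentiation in CA1, and it occupies bases 57011387 to 57330244 of chromosome 11 on the plus strand of GRCm38, the build of all positions here. It had 1221, 1262, 1129 and 1233 CPM in Cre replicates 1 to 4, and 1216, 1197, 1222 and 1205 CPM in WT replicates 1 to 4. The WT values sat close together, and Cre replicate 3 was the lowest and Cre replicate 2 the highest of the 8. The means were 1211 ± 57.3 CPM in Cre and 1210.1 ± 11.1 CPM in WT (SD, n = 4 each), a log2 fold change of 0.0015 (SE 0.03). The 95% confidence interval of the change ran from -4.97% to 5.45%.

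Gria2 encodes GluA2, the subunit that makes edited receptors nearly impermeable to calcium. It lies on chromosome 3 at 80681450 to 80802835 (minus strand) and had 958, 1010.3, 951 and 1014 CPM in the 4 Cre libraries and 978, 970.5, 989.8 and 999 CPM in the 4 WT libraries. All WT values fell inside the Cre range. The mean was 983 ± 33.5 CPM in Cre and 984 ± 12.5 CPM in WT (SD, n = 4 each), with a log2 fold change of -0.0016 (SE 0.03) and an interval from -4.67% to 4.66%. The intervals of Gria2 and Gria1 were the narrowest of the 10, followed by that of Gria3.

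Gria3, on chromosome X at 41400854 to 41678601 (plus strand), encodes GluA3, a partner of GluA2 in receptors of mature synapses. Its level was 215, 219, 220.4 and 232 CPM in Cre, against 226, 225, 234 and 227 CPM in WT. Cre replicates 1, 2 and 3 lay below every WT library, and Cre replicate 4 lay inside the WT range. The log2 fold change was -0.04 (SE 0.04; interval -7.96% to 2.65%).

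Gria4, on chromosome 9 at 4417896 to 4796234 (minus strand), encodes GluA4, which in the adult hippocampus is prominent in fast-spiking interneurons. It had the fewest counts of the 4 pore genes, with 62.7, 62.3, 65.7 and 58.0 CPM in Cre and 63.3, 67.3, 63.4 and 59.4 CPM in WT. Replicate 4 was the lowest library in each genotype, and the ranges overlapped. The log2 fold change was -0.03 (SE 0.05; interval -8.87% to 5.64%). Interneuron markers, 9 genes, summed to 940.5 to 1077 CPM in Cre and 997 to 1078 CPM in WT. They include Sst, Vip, Npy and Cck, so the sum is not particular to fast-spiking cells.

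**Figure D2:**
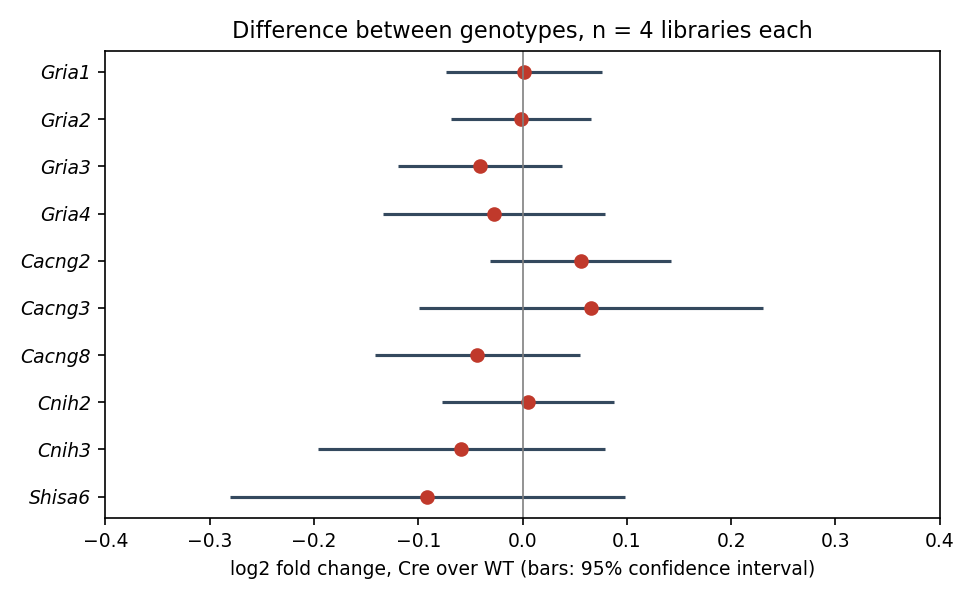
Points give the log2 fold change of each gene, Cre over WT, and bars its 95% confidence interval from the fit across all genes (n = 4 libraries each). Every interval includes 0; the narrowest belong to Gria1 and Gria2 and the widest to Shisa6.

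The make-up of the pore subunit pool was computed in each library as the share of each subunit in the summed level of the 4, per kilobase of annotated exon. The Gria1 share was 68.4%, 68.3%, 66.6% and 67.6% in Cre, against 67.7%, 67.4%, 67.5% and 67.3% in WT. It averaged 67.7% ± 0.847 in Cre and 67.5% ± 0.173 in WT (SD, n = 4 each), a difference of 0.212 percentage points (exact permutation p = 0.714, two-sided). Cre libraries held both the highest and the lowest share, so the range in Cre enclosed that in WT.

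The Gria2 share averaged 21.4% ± 0.412 in Cre and 21.3% ± 0.241 in WT (exact permutation p = 0.857, n = 4 each). The Gria3 share averaged 7.61% ± 0.330 in Cre and 7.80% ± 0.0869 in WT (exact permutation p = 0.4, n = 4 each). The Gria4 share averaged 3.34% ± 0.280 in Cre and 3.39% ± 0.185 in WT (exact permutation p = 0.8, n = 4 each). None of these 4 shares differed between genotypes by more than the spread between libraries, and p adjusted over the 9 shares and ratios examined was 0.72 or higher for each.

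The size of a share depended on the length used. Over all its transcripts Gria2 is annotated with 15548 bases of exon, Gria1 with 6043, Gria3 with 9859 and Gria4 with 6305. Their coding lengths, in the same order, are 2804, 2836, 2779 and 2851 bases. The principal transcript of Gria2 has 10371 bases. Per kilobase of coding length, Gria1 held 48.6% ± 0.894 in Cre and 48.4% ± 0.237 in WT, and Gria2 held 39.9% ± 0.527 in Cre and 39.8% ± 0.339 in WT (SD, n = 4 each). The difference between genotypes in the Gria2 share was 0.0317 percentage points per kilobase of exon and 0.0805 per kilobase of coding length. Gria1 stayed above Gria2 under both lengths, and how far above cannot be read from gene counts alone.

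**Figure D3:**
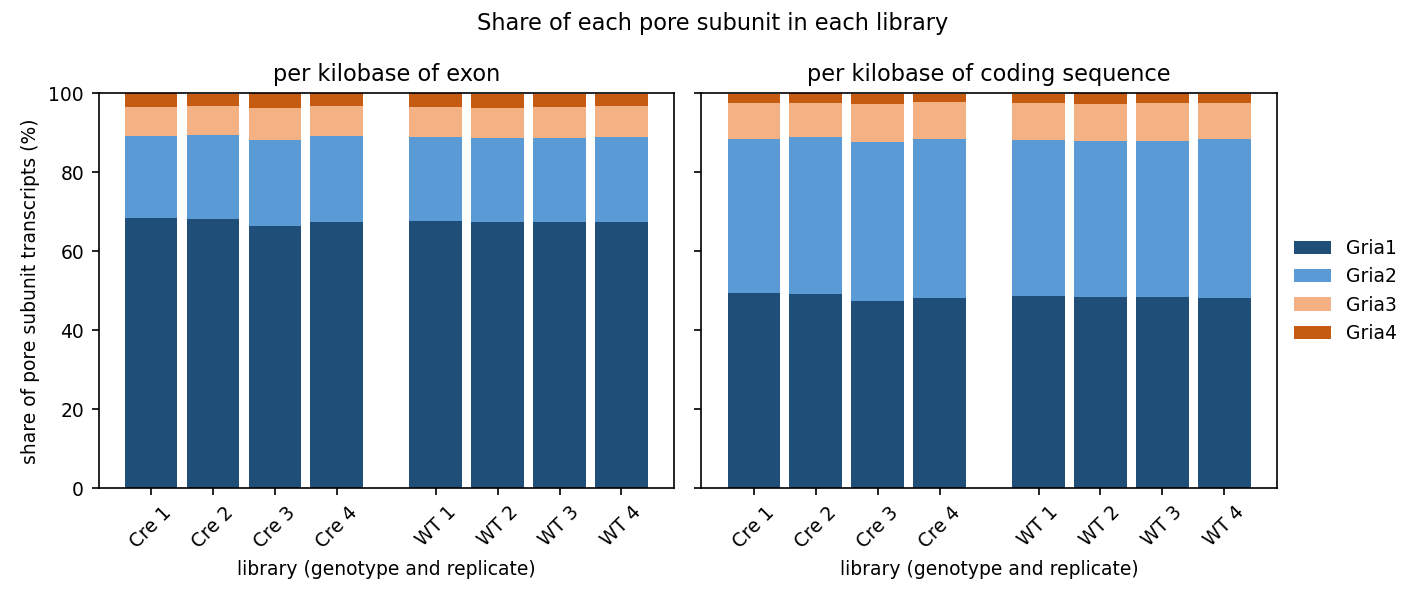
Stacked bars give the percentage of each pore subunit in the summed level of the 4, per library, with levels per kilobase of exon on the left and per kilobase of coding sequence on the right. The bars are nearly level across the 8 libraries, with Gria1 at 66.6% to 68.4% on the left, while the Gria2 portion is larger on the right.

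Of the TARPs, Cacng2 encodes stargazin, the protein lost in the stargazer mouse, and lies on chromosome 15 at 77991748 to 78120028 (minus strand). It had 103, 102.1, 101 and 107 CPM in Cre and 97.1, 96.4, 103 and 102 CPM in WT. Cre replicate 4 was above all WT libraries, and the other Cre libraries lay inside the WT range. The mean was 103 ± 2.61 CPM in Cre and 99.5 ± 3.19 CPM in WT (SD, n = 4 each), with a log2 fold change of 0.06 (SE 0.04; interval -2.14% to 10.4%). Its unadjusted p of 0.189 by edgeR's quasi-likelihood test was the smallest among the 10 genes. An antisense gene, A730060N03Rik, overlaps 323 exon bases of Cacng2 on the opposite strand, and with the strand setting of the counting not given its reads cannot be told apart there; it had 333 counts over all libraries against 20246 for Cacng2.

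Cacng3, on chromosome 7 at 122670492 to 122769393 (plus strand), encodes the TARP gamma-3 of forebrain neurons. It had 48.5, 52.6, 54.5 and 63.1 CPM in Cre and 52.0, 57.9, 51.1 and 47.9 CPM in WT. Cre replicate 4 was the highest of the 8 libraries, and Cre replicate 1 was among the lowest. The log2 fold change was 0.07 (SE 0.08; interval -6.66% to 17.3%), and it was -0.0090 without Cre replicate 4.

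Cacng8, on chromosome 7 at 3390683 to 3415648 (plus strand), encodes gamma-8, the TARP that hippocampal neurons need for normal numbers of AMPA receptors at the surface. It had 223, 229.9, 204 and 229 CPM in Cre and 235, 219, 235 and 224 CPM in WT. Cre replicate 3 was the lowest library, as it was for Gria1, and the ranges overlapped. The log2 fold change was -0.04 (SE 0.05; interval -9.34% to 3.88%), and it was -0.0048 without Cre replicate 3. The table lists Cacng8 in 2 entries, of which 1 had 0 counts in every library and gave no value.

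Per kilobase of exon, Cacng8 made up 71.1% ± 1.59 of the 3 TARPs in Cre and 72.5% ± 1.13 in WT (SD, n = 4 each; exact permutation p = 0.171). Cacng2 made up 14.1% ± 0.457 in Cre and 13.5% ± 0.486 in WT (exact permutation p = 0.114, n = 4 each). Cacng3 made up 14.8% ± 1.40 in Cre and 14.03% ± 1.24 in WT (exact permutation p = 0.371, n = 4 each). The differences, -1.45, 0.671 and 0.779 percentage points, did not pass (smallest adjusted p = 0.72 by the exact permutation test over the 9 shares and ratios). Per kilobase of coding sequence, Cacng8 held 50.1% ± 1.65 in Cre and 51.8% ± 1.13 in WT, and Cacng2 held 32.4% ± 0.775 in Cre and 31.3% ± 0.979 in WT, a difference of 1.09 percentage points.

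Cornichons are small membrane proteins that carry AMPA receptors out of the endoplasmic reticulum and slow their deactivation. Cnih2, on chromosome 19 at 5092868 to 5098521 (minus strand), had 469, 487, 479 and 487 CPM in Cre and 488, 446, 481 and 500.3 CPM in WT. All Cre values fell inside the WT range, whose ends were WT replicates 2 and 4. The mean was 481 ± 8.88 CPM in Cre and 479 ± 23.0 CPM in WT (SD, n = 4 each), a log2 fold change of 0.0051 (SE 0.04; interval -5.21% to 6.25%). Its exons overlap those of Yif1a on the opposite strand by 14 bases. MicroRNA genes on the same strand overlap exons of Gria2 (Gm25749, 111 bases), Cacng8 (Gm23450, 91), Gria3 (Gm22413, 85) and Gria4 (Gm23811, 19). Their counts over all libraries were 0, 0, 0 and 4, in that order.

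Cnih3, on chromosome 1 at 181352628 to 181460641 (plus strand), had 68.1, 74.3, 78.6 and 83.2 CPM in Cre and 86.9, 75.6, 75.3 and 79.2 CPM in WT. Cre replicates 1 and 2 lay below the WT libraries and the other Cre libraries among them. The log2 fold change was -0.06 (SE 0.06; interval -12.7% to 5.61%), and it was -0.0092 without Cre replicate 1 and -0.011 without WT replicate 1. The log2 ratio of Cnih2 to Cnih3 per kilobase of exon was 3.67 ± 0.104 in Cre and 3.60 ± 0.0881 in WT (SD, n = 4 each), and its difference of 0.07 did not pass (exact permutation p = 0.4).

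Shisa6 encodes a membrane protein that, in mouse hippocampal synapses, holds AMPA receptors at the postsynaptic density and limits their desensitization. It lies on chromosome 11 at 66211725 to 66525964 (minus strand) and had 199.6, 207 (replicate 2), 159.9 and 156 CPM in Cre replicates 1 to 4, against 184, 177, 207 and 202 CPM in WT. Cre replicates 3 and 4 were below every WT library, while Cre replicate 1 was inside the WT range and Cre replicate 2, at 207.4 CPM, was just above the highest WT library, at 206.6 CPM. The mean was 181 ± 26.4 CPM in Cre and 193 ± 14.1 CPM in WT (SD, n = 4 each), with a log2 fold change of -0.09 (SE 0.09; interval -17.7% to 7.02%). The spread in Cre, 14.6% of the mean, was the widest among the 10 genes and far above the 1.51% that counting alone gives at this depth.

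Markers of CA3 and CA2 pyramidal neurons lay in a like arrangement over the libraries. Summed over 8 markers they stood at 449, 485, 385 and 381 CPM in Cre replicates 1 to 4 and at 462, 394, 457 and 458 CPM in WT replicates 1 to 4. Of the 8 markers, 6 had fold changes below 0, against 49.8% of all genes, and 0 passed over all genes. By edgeR 1 of them was lower in Cre at an unadjusted p under 0.05, against 1.45% of all genes. The 3 libraries with the lowest marker sums, Cre replicates 3 and 4 and WT replicate 2, were also the 3 with the lowest Shisa6. By marker sum the libraries fall into a low and a high cluster with fewer than 6 in each, so no correlation was computed. Shisa6 itself did not split this way. In WT replicate 2, at 177 CPM, it was nearer to WT replicate 1, at 184 CPM, than to Cre replicate 3, at 159.9 CPM. The pattern was noticed after the values were seen. The part of CA3 and CA2 tissue in the Shisa6 level was not tested.

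**Figure D4:**
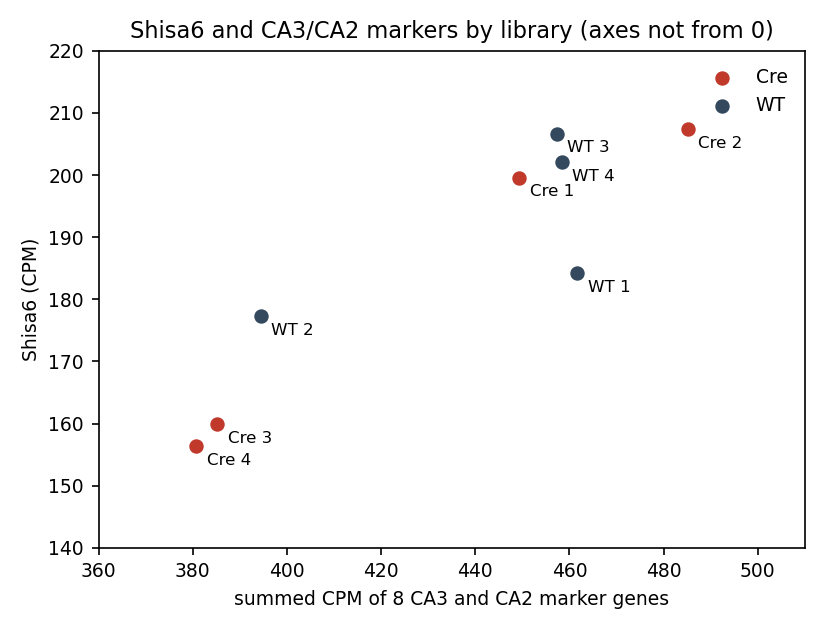
Each point is 1 library, with the summed CPM of 8 CA3 and CA2 marker genes on the horizontal axis and Shisa6 in CPM on the vertical axis; neither axis starts at 0. Cre replicates 3 and 4 and WT replicate 2 sit at the lower left (156 to 177 CPM of Shisa6), and the other 5 libraries at the upper right.

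The libraries of a genotype differed by more than counting error in most of these genes. In WT the coefficient of variation was 0.919% for Gria1 and 1.27% for Gria2, where counting alone gives 0.568% and 0.630%. In Cre it was 4.73% for Gria1 and 3.40% for Gria2, against 0.583% and 0.646% from counting. For Gria4 it was 5.09% in both genotypes, against 2.57% in Cre and 2.48% in WT from counting. Whether the spread itself differs between genotypes was not tested.

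Levels of different genes were set side by side per kilobase of exon, as the mean over all 8 libraries. Cnih2 was the highest at 350.4 CPM per kilobase, followed by Gria1 at 200.4, Cacng8 at 95.9 and Gria2 at 63.3, with no overlap of library ranges between neighbours in this order. Cnih3 (28.2), Shisa6 (25.1), Gria3 (22.8), Cacng3 (19.2) and Cacng2 (18.4) followed, and each overlapped the next within these 5. Gria4 was the lowest at 9.96, below the range of Cacng2. Per kilobase of coding sequence Cnih2 (948), Gria1 (427) and Gria2 (351) led and Gria4 (22.02) was again lowest, but Gria2 stood above Cacng8 (167) and Cacng2 (105) above Gria3 (81.0). The place of Shisa6 also depended on the length. Its principal transcript, at 1578 bases, is shorter than its annotated coding length of 1671 bases, while its annotated exons cover 7449. Per kilobase of that transcript Shisa6 stood at 115 CPM in Cre and 122 CPM in WT. These values were above Gria2 (94.8 in Cre, 94.9 in WT) and near Cacng8 (117 in Cre, 120.3 in WT). The summed level of the 6 auxiliary genes over that of the 4 pore genes, per kilobase of exon, gave a log2 ratio of 0.86 ± 0.0325 in Cre and 0.86 ± 0.0479 in WT (SD, n = 4 each). With counts not divided by length its sign was the opposite, at -1.15 ± 0.0154 in Cre and -1.14 ± 0.0408 in WT, so which sum is the larger depends on the scale.

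The genes whose pattern over the 8 libraries was most like that of Gria1 included Prkce and Eif3c, with root mean square differences of 0.014 and 0.015 in centred log2 CPM, among 9950 other genes with at least 10 CPM. For Gria2 they were Csnk1g3, Kpnb1 and Sf3b2, with 0.0090, 0.011 and 0.013. Gria1 and Gria2 differed from each other by 0.030 on this measure. Genes that vary little are near to each other on it, and no test was made.

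Other genes of AMPA receptor biology, listed by function but with earlier results of these data known, did not pass either. Of 23 genes for further auxiliary and associated proteins, 0 rose and 0 fell by edgeR's quasi-likelihood test. By that test 0 had an unadjusted p under 0.05, against 3.5% of all genes. Fold changes lay below 0 in 11 (median 0.0049), against 49.8% of all genes. The smallest p-values in that list belonged to Grid1, a delta glutamate receptor gene, at 84.1 ± 4.19 CPM in Cre and 90.0 ± 3.82 CPM in WT (log2 fold change -0.10, SE 0.05), and to Cpt1c, whose product regulates AMPA receptors in the endoplasmic reticulum, at 128 ± 3.84 CPM in Cre and 133 ± 3.97 CPM in WT (log2 fold change -0.06, SE 0.04). Both had n = 4 libraries per genotype.

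For receptor trafficking and anchoring 21 genes were listed, of which 19 were found in the count table under the symbol used. Of these 19, 0 passed, and 13 had fold changes below 0 (median -0.03), against 49.8% of all genes. Arc, an activity-induced gene whose product removes AMPA receptors from the surface, had 184, 191, 280.3 and 272 CPM in Cre and 144, 165, 219 and 159 CPM in WT. WT replicate 3 lay above Cre replicates 1 and 2, so the groups overlapped. Its log2 fold change was 0.43 (SE 0.15; adjusted p = 0.999 by edgeR, exact permutation p = 0.114). Myo6, a motor of endocytic transport, had 144.8 ± 10.3 CPM in Cre and 133 ± 5.84 CPM in WT (log2 fold change 0.13, SE 0.05). Arc and Myo6 were the only 2 of the 19 at an unadjusted p under 0.05 by edgeR, against 3.5% of all genes. Dlg4, which encodes PSD-95, had 913 ± 21.1 CPM in Cre and 907 ± 24.6 CPM in WT (SD, n = 4 each).

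Of 11 genes for extracellular clustering factors, 0 passed and 9 had fold changes below 0 (median -0.016), against 49.8% of all genes. An unadjusted p under 0.05 by edgeR was found for 1, against 3.5% of all genes. That was Lrrtm2, an adhesion gene of excitatory synapses, at 62.4 ± 4.12 CPM in Cre and 66.9 ± 0.867 CPM in WT (log2 fold change -0.10, SE 0.05). Lrrtm1 had 119 ± 8.23 CPM in Cre and 127 ± 4.51 CPM in WT (log2 fold change -0.10, SE 0.05). Of the 3 genes of the ADAR family, 0 passed and 0 had an unadjusted p under 0.05: Adarb1, which edits the Gria2 Q/R site, had 199.0 ± 9.06 CPM in Cre and 199.6 ± 2.79 CPM in WT (log2 fold change -0.0047, SE 0.04), Adar had -0.01 (SE 0.04) and Adarb2 0.05 (SE 0.07).

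**Figure D5:**
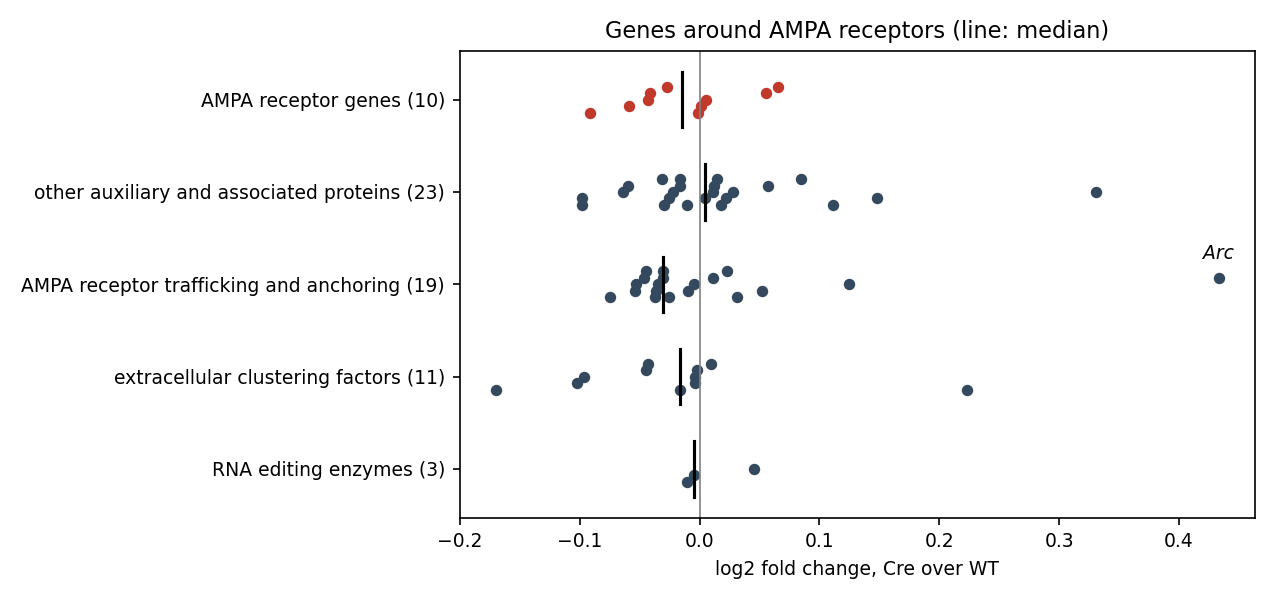
Each point is 1 gene and gives its log2 fold change, Cre over WT, with a black line at the median of each list and the number of genes after its name. The 10 AMPA receptor genes (red) lie between -0.09 and 0.07, and Arc, at 0.43, is farthest from 0.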

How the data were processed

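The authors deposited raw read counts as whole numbers, 1 column a library and 1 line a gene entry. The submitters' processing notes name STAR 2.6.1d, featureCounts, edgeR 3.11 and GRCm38; annotation release and strand setting: not given in the sources used here. Libraries were made from poly(A)-selected RNA with a directional kit and sequenced together as paired reads of 150 bases, per the labels' protocols. The authors' table of their own comparison was not used here.

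Counts were tested with edgeR 4.0.16 in R 4.3.3 (quasi-likelihood, filterByExpr with a minimum count of 10 and minimum total of 15, TMM, no covariate, 2-sided, Benjamini-Hochberg over 15859 genes, threshold 0.05), after a check on simulated data. Shares used exact permutation over the 70 splits into 4 and 4, whose smallest p is 0.0286. The log2 ratio of auxiliary to pore genes is a score over all 10 members, so its own p is not printed, but it is among the 9 shares and ratios adjusted together. Positions, lengths and sequences are from GENCODE M21 (GRCm38). The count table lacks the symbols Gm44749 and Gm44151 of that release, so the exons counted need not be those measured here. Levels and shares per kilobase carry this limit. The members, lists and rules were chosen with earlier results of these data known. Named genes are the 10 members, up to 2 per list with the smallest p, and the 3 genes nearest in pattern to Gria1 and Gria2, of which 1 is not reported here; Dlg4, Adarb1 and the CA3 and CA2 pattern were chosen after their values were seen. Alternatives used DESeq2 1.42.0, limma 3.58.1, other scalings, no filter, the replicate block, other lengths and each library left out. At this depth the median SE of a log2 fold change was 0.074 over all genes. Counting errors cover sampling of reads only, and PCR copies were not separated by molecular identifiers.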

Additional observations from a re-analysis of the deposited data

Results flagged for a closer look

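The Gria2 share of the pore subunits, per kilobase of exon, was 21.7% in WT replicate 4, while WT replicates 1, 2 and 3 each had 21.2%; the Cre libraries spanned 20.8% to 21.8%. That library stood far from the rest of its group relative to the group's range. It was the only such case among 38 sets of 4 values examined (10 gene levels and 9 shares or ratios in each genotype). Chance gives about 1 in 20 such sets, so 1 among 38 is no more than chance gives. The shares of a library also depend on each other.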

How the results depend on the processing

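Under 14 alternatives (8 of them with 1 library left out) 0 of the 10 genes passed (adjusted p from 0.891 to 0.9999), and over all genes 4 to 7 passed, against 5. Of 140 refitted fold changes of the 10 genes, 18 changed sign, all of them small: Gria2 was 0.0056 with upper quartile factors, and Gria1 was -0.00032 with limma voom and -0.0019 without a filter on low counts. With 1 library left out, log2 fold changes ran from -0.019 to 0.034 for Gria1, -0.016 to 0.014 for Gria2, -0.057 to 0.0061 for Gria4, -0.0090 to 0.12 for Cacng3 and -0.026 to 0.027 for Cnih2; with no change of sign, they ran from -0.063 to -0.0048 for Cacng8, -0.10 to -0.0092 for Cnih3 and -0.16 to -0.027 for Shisa6. Differences in share, also with 1 library left out, ran from -0.0247 to 0.593 percentage points for Gria1, -0.107 to 0.204 for Gria2, -0.312 to -0.0835 for Gria3 and -0.173 to 0.0476 for Gria4. They ran from 0.468 to 0.870 for Cacng2, 0.299 to 1.39 for Cacng3 and -2.0 to -0.943 for Cacng8. The log2 ratio of auxiliary to pore genes ran from -0.025 to 0.011. With all libraries kept, the other settings gave 0.609 to 1.09 percentage points for Cacng2. Of 104 refitted shares and ratios, 0 had a permutation p under 0.05 (smallest 0.0571). The coding and principal transcript lengths were added after the data were seen. Replicate numbers were not treated as pairs in the main test. Correlations of deviations of same-numbered libraries ran from -0.114 to 0.203, the largest between any Cre and WT library. Not every library correlated best with its own number, and these correlations cannot show whether the numbers mark pairs. With the replicate block 6 genes passed over all genes and 0 of the 10, and the exact paired sign-flip permutation test of shares cannot go below p = 0.125. The spread between libraries limits what can be seen: intervals reached -17.7% for Shisa6 and 17.3% for Cacng3.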
